A study of Mus musculus with 8 samples.

Results

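The H3K27ac peaks on mouse chromosomes 1, 10 and 15 were described, which number 9565 of the 28924 peaks of proliferating Oli-neu cells and 9455 of the 27965 peaks of differentiating Oli-neu cells. These 3 chromosomes were chosen because they held the most peaks per Mb in the same lists, so their density is given as a description and not as a finding. Acetylation of lysine 27 of histone H3 (H3K27ac) was mapped by chromatin immunoprecipitation and sequencing (ChIP-seq) in Oli-neu, an established line of mouse oligodendrocyte lineage cells that the labels trace to embryonic oligodendrocyte precursors of C57BL/6 mice. Proliferating cells were kept in medium with bFGF, Pdgf-BB, T3 and thyroxine. Differentiating cells were grown without growth factors and with the ErbB inhibitor PD174265 for 1 day according to the labels, whereas the culture methods of the study give another duration. Each state gave 1 library, so no difference between the states could be set against a spread between cultures, and the 95% intervals below cover counting error only. Oli-neu is 1 established line, so no animals were sampled. No use was made of the 6 ATAC-seq samples (3 siCtrl, 3 siPadi2).

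H3K27ac marks nucleosomes at active promoters and at active enhancers, the distal elements from which transcription factors raise the transcription of genes at a distance. In the oligodendrocyte lineage, factors such as Sox10 and Olig2 act through both kinds of element while precursors leave the cell cycle and turn on myelin genes. A broad peak caller joins neighbouring enriched stretches into 1 region, and a peak was called a promoter peak here where it overlapped a stretch around the start (TSS) of a protein-coding gene, reaching 3000 bp before it and 100 bp into the gene. Every other peak was called distal, which includes peaks in exons, in introns and between genes. Of 10 markers of the oligodendrocyte lineage, proliferating cells had 3 with a promoter peak and differentiating cells the same 3 and 2 more, and Sox10, Olig1, Olig2, Sox8 and Myrf made up the 5. None of 4 astrocyte and none of 4 microglia markers had one in either list, and of 4 neuron markers 1, Syt1 on chromosome 10, had one in the differentiating list. These lists are short, and of all protein-coding genes 35.3% and 40.2% had a promoter peak on chromosomes 1, 10 and 15 and 23.0% and 27.1% on the other autosomes, so 3 of 10 lay near the share of all genes and little is read from the absence of a peak at 4 markers.

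Sequences of 200 bases are shown for the elements on which the description turns: the strongest distal peaks found in both lists, the strongest distal peaks of chromosomes 10 and 15 found in the proliferating list alone, and the start sites of Sox10 and Mdm2. They were read from the plus strand of GRCm38 (RefSeq), at the centre of the peak or around the TSS, and capitals mark matches to 5 short motifs that were searched on both strands. The motifs were TGANTCA (AP-1), ACAATG (SOX), CAGCTG (E-box), TGACGTCA (CRE) and GGGCGG (SP/KLF), and a match is only a match of letters.
chr1:12644710-12644909, in both lists, between genes: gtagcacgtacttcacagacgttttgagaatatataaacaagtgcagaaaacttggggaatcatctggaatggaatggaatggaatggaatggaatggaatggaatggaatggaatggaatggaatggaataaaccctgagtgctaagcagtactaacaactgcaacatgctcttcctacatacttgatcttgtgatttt
chr10:22142501-22142700, in both lists, intron of E030030I06Rik: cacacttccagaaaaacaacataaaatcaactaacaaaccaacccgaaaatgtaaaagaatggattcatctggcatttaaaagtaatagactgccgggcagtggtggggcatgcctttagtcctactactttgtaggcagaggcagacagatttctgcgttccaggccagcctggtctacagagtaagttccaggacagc
chr10:122985933-122986132, in both lists, exon of D630033A02Rik: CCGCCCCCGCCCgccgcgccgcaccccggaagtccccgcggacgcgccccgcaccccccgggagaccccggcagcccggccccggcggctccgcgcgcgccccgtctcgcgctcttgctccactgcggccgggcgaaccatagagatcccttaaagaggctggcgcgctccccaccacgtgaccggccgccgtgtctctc
chr15:75086258-75086457, in both lists, between genes: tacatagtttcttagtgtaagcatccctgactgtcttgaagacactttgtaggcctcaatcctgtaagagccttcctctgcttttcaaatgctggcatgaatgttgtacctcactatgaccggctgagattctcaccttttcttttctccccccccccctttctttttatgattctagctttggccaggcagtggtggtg
chr10:41887519-41887718, proliferating list only, exon of Sesn1: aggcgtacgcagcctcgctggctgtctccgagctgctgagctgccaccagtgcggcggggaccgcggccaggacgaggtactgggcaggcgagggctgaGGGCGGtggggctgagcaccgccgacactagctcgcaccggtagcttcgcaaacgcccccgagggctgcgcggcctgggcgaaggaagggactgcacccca
chr15:23728951-23729150, proliferating list only, exon of Gm48916: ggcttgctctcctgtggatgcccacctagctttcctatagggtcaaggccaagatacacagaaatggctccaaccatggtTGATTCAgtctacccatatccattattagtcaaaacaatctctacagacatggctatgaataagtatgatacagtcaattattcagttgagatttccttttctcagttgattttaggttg
chr15:79165141-79165340, TSS of Sox10: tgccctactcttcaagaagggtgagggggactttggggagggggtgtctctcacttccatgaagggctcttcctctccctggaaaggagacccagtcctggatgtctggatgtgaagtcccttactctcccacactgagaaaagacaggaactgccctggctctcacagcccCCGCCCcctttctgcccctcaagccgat
chr10:117710659-117710858, TSS of Mdm2: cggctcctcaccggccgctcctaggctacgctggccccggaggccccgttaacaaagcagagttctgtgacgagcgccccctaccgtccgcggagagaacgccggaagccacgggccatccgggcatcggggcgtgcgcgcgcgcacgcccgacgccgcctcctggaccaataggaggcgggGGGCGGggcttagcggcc

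The stretch shown from chromosome 1 held 13 consecutive copies of the unit ggaat, and 35.5% of it was masked as repeat in the genome file. The intron of E030030I06Rik was masked over 67.5% of the 200 bases shown, and the stretch from chromosome 15 over 35.5%. The exon of D630033A02Rik, a pseudogene annotated over the microRNA gene Mirlet7i, was of another kind, with a GC content of 79% and 33 CpG dinucleotides. The 2 start sites also differed, since the bases around the Mdm2 TSS had a GC content of 73.5% and 28 CpG and those around the Sox10 TSS 58% and 2 CpG. Sox10 and Mdm2 are transcribed from the minus strand, so in the lines shown transcription runs from right to left.

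On the 419.63 Mb of sequence without gaps of chromosomes 1, 10 and 15, the proliferating list had 22.8 peaks per Mb (95% interval 22.3 to 23.3) and the differentiating list 22.5 (22.1 to 23.0). The other 16 autosomes had 9.72 (9.58 to 9.86) and 9.28 (9.15 to 9.42) peaks per Mb. The 3 chromosomes thus held 33.2% (32.7 to 33.8) and 34.0% (33.5 to 34.6) of the autosomal peaks on 17.5% of the autosomal sequence. Chromosome 15 was the densest, with 27.9 peaks per Mb in either list (2812 and 2810 peaks). Chromosome 10 followed with 23.7 and 23.6 (3007 and 2997 peaks), and chromosome 1 with 19.5 and 19.01 (3746 and 3648 peaks). Chromosome 1 lay just inside the choice, and chromosome 19, at 17.95 and 16.7 peaks per Mb, just outside it.

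Spacing restates the density on a finer scale and is not a separate result. The median distance between the midpoints of neighbouring peaks was 24.8 kb in the proliferating and 24.99 kb in the differentiating list, against 42.4 and 39.8 kb on the other autosomes. Of the gaps on chromosomes 1, 10 and 15, 2.36% and 2.54% were longer than 200 kb, against 12.8% and 13.1% elsewhere. The longest gaps were on chromosome 1, with 848 kb in the proliferating and 1121 kb in the differentiating list.

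Each chromosome was cut into fixed windows of 5 Mb, and a window was called dense where it had at least 2 times the peaks per Mb of the median autosomal window. Chromosomes 1, 10 and 15 had 83 windows with enough sequence, which held all peaks but 126 (proliferating) and 124 (differentiating). The lowest, median and highest window had 5.6, 21.0 and 49.4 peaks per Mb in the proliferating list and 3.8, 22.6 and 51.2 in the differentiating list. On the other autosomes the median window had 7.4 and 7.04. Of the 83 windows, 53 were dense in the proliferating list, where 20.6% of all 472 autosomal windows were called. In the differentiating list 58 of the 83 were dense, where 21.6% of all windows were called. Since the chromosomes were chosen by density, nothing is read from these shares. The windows dense in both lists numbered 52, of which 19 of 38 lay on chromosome 1, 18 of 25 on chromosome 10 and 15 of 20 on chromosome 15. The density was thus not spread evenly over the chromosomes.

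**Figure D1:**
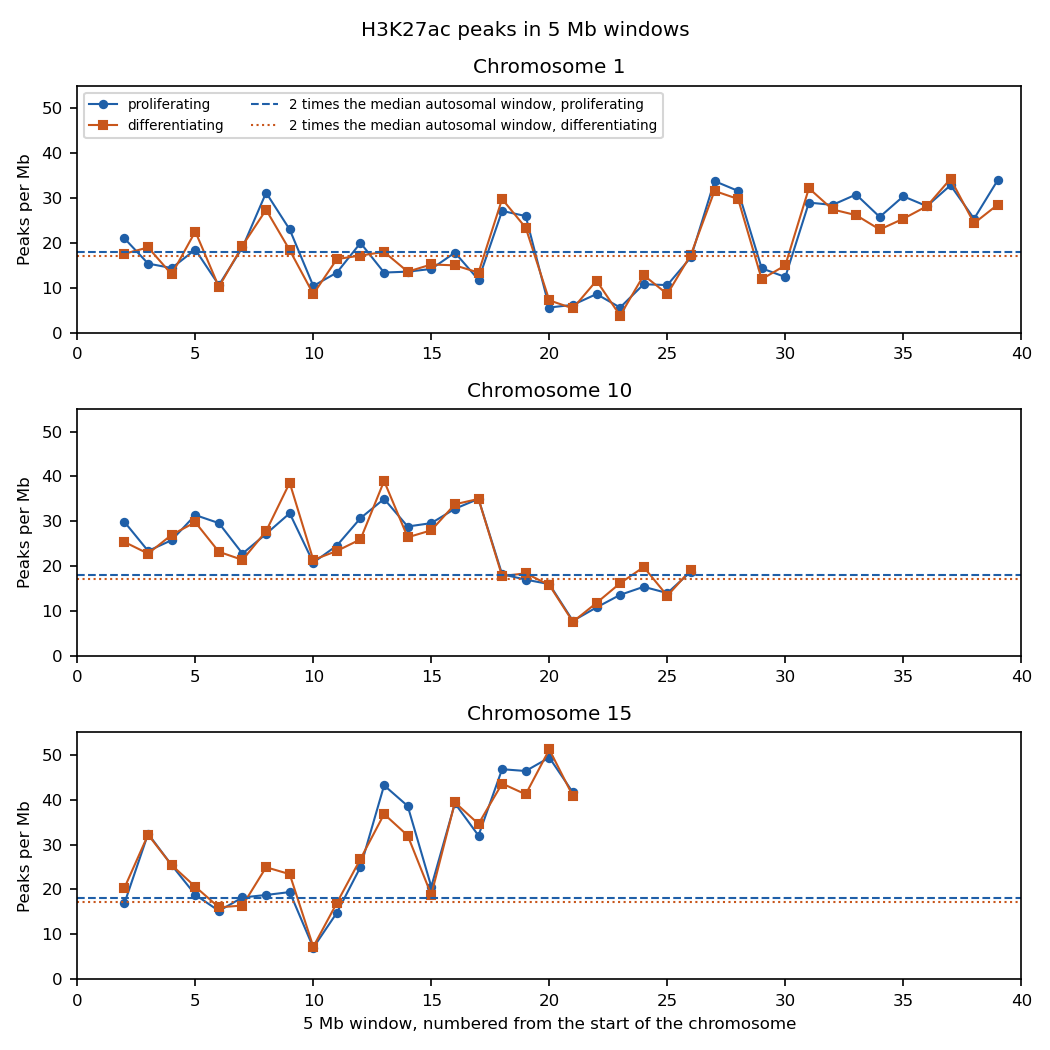
Peaks per Mb in 5 Mb windows of chromosomes 1, 10 and 15, by window number from the start of the chromosome, in the proliferating (circles) and differentiating (squares) list, 1 library each. The dashed and dotted lines mark 2 times the median autosomal window of each list. Windows 2 to 18 of chromosome 10 lie above the lines, and the 10 windows at the end of chromosome 15 reach 49.4 and 51.2 peaks per Mb.

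Runs of at least 2 neighbouring windows that were dense in both lists were taken as dense segments. Chromosomes 1, 10 and 15 had 8 of them with 48 windows, and the other autosomes had 9 with 24 windows, none longer than 4. Inside the 8 segments there were 29.8 and 28.9 peaks per Mb, and 13.5 and 14.1 in the 35 remaining windows of the same chromosomes. The other autosomes outside their segments had 8.43 and 8.10 peaks per Mb. Chromosomes and segments were both chosen by peak counts, so these densities are descriptions. The remaining windows also had fewer genes, with 4.78 protein-coding genes per Mb against 8.97 in the segments.

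Chromosome 1 was a mosaic of dense and sparse stretches. Its dense segments ran from 30 to 45 Mb, 85 to 95 Mb, 130 to 140 Mb and 150 to 195 Mb, and the last was 9 windows long with 29.4 and 27.7 peaks per Mb. The segment from 85 to 95 Mb had 26.6 peaks per Mb in either list. The 6 windows from 95 to 125 Mb formed a sparse stretch, with 5.6 to 10.8 peaks per Mb in the proliferating and 3.8 to 12.8 in the differentiating list, and several of them held few genes. The window from 110 to 115 Mb had 2 protein-coding genes, 28 proliferating peaks and 19 differentiating ones.

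Chromosome 10 instead showed 1 long plateau. All 17 windows from 5 to 90 Mb were dense in both lists, with 28.1 and 27.5 peaks per Mb together, and the 8 windows that remained had 14.2 and 15.3. The plateau was no richer in genes than the rest, with 7.97 against 8.05 protein-coding genes per Mb, and its GC content was 41.6% against 40.9%. More of its genes carried a promoter peak, with 39.9% and 44.8% of 674 genes on the plateau against 29.2% and 33.2% of 322 genes in the rest. Promoter peaks are part of the count that defined the plateau, so nothing is read from this difference. The window from 45 to 50 Mb had 6 genes and yet 20.8 and 21.4 peaks per Mb. The window from 125 to 130 Mb had 153 genes and 18.8 and 19.2 peaks per Mb, of which 38.3% and 42.7% were promoter peaks.

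Chromosome 15 held both a gene-poor and a gene-rich dense segment. The segment from 10 to 25 Mb had 29 protein-coding genes (1.93 per Mb) and 25.5 and 26.1 peaks per Mb. Of its 383 and 391 peaks, 3.13% and 3.07% were promoter peaks, and 9.92% and 9.72% had a counterpart in the other list. The segment from 55 to 105 Mb had 12.7 genes per Mb, 38.2 and 36.4 peaks per Mb, 10.5% and 12.7% promoter peaks, and a counterpart for 24.4% and 25.5% of its peaks. The window from 95 to 100 Mb was the densest of the 83, with 247 and 256 peaks. Dense windows on this chromosome could therefore lie among many genes or among few. Between the segments, the window from 45 to 50 Mb was sparse, with 7.0 and 7.2 peaks per Mb.

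Steps in density were looked for at every boundary with 3 windows on both sides, and a change of at least 2-fold counted. On chromosomes 1, 10 and 15, 9 of 68 boundaries (13.2%) passed in the proliferating list, where 14.9% of all 377 autosomal boundaries did. In the differentiating list 7 of 68 (10.3%) passed, where 14.1% of all did. These shares lay a little below the background. With peaks of a −log10 q of at least 5 alone, windows held few peaks and 14 steps per list were called. With all peaks, runs of neighbouring boundaries gave 4 steps per list on chromosomes 1, 10 and 15 and 26 on the other autosomes. None of the 4 matched the largest elsewhere, at 45 Mb of chromosome 5, where the density fell from 41.8 to 1.93 and from 35.9 to 1.73 peaks per Mb.

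The first step on chromosome 1 was a fall at 95 Mb in the proliferating list, from 21.6 to 6.80 peaks per Mb, between the TSSs of Pdcd1, an inhibitory receptor of T cells, and Fam174a. In 1 Mb bins the proliferating list had 50 and 31 peaks from 92 to 94 Mb and then 4 and 3 peaks, and the differentiating list 35 and 24 and then 5 and 7. The 3-window rule placed the fall of the differentiating list at 100 Mb, from 20.1 to 6.93 peaks per Mb, between Cntnap5b, a protein of the neurexin family, and Cdh20, a cadherin. The second step on chromosome 1 was a rise at 125 Mb, from 9.00 to 27.4 and from 8.40 to 26.3 peaks per Mb, between Dpp10, which binds potassium channels, and Actr3, a subunit of the Arp2/3 complex that nucleates actin. There the bins on either side of the boundary had 4 and 20 peaks in the proliferating and 7 and 23 in the differentiating list.

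The step on chromosome 10 was a fall at 90 Mb, from 28.7 to 13.6 and from 28.9 to 13.9 peaks per Mb, between Anks1b, a protein of the postsynaptic density, and Apaf1, which activates caspases in apoptosis. Distal peaks alone fell there by less than 2-fold, from 21.4 to 12.4 and from 20.4 to 12.5 per Mb. In 1 Mb bins the fall was nearer to 87 Mb, where the bin before had 26 and 28 peaks and the bin after 11 and 10. The step on chromosome 15 was a rise at 55 Mb, from 13.7 to 35.6 and from 15.9 to 31.9 peaks per Mb, between Enpp2, the secreted lysophospholipase D autotaxin of oligodendrocytes, and Taf2, a subunit of the general transcription factor TFIID. Distal peaks alone rose from 13.5 to 34.1 and from 15.2 to 30.3 per Mb, the latter 1.99-fold. This rise was gradual, with 15 and 21 peaks in the bin after the boundary and 44 and 51 in the bin from 59 to 60 Mb.

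**Figure D2:**
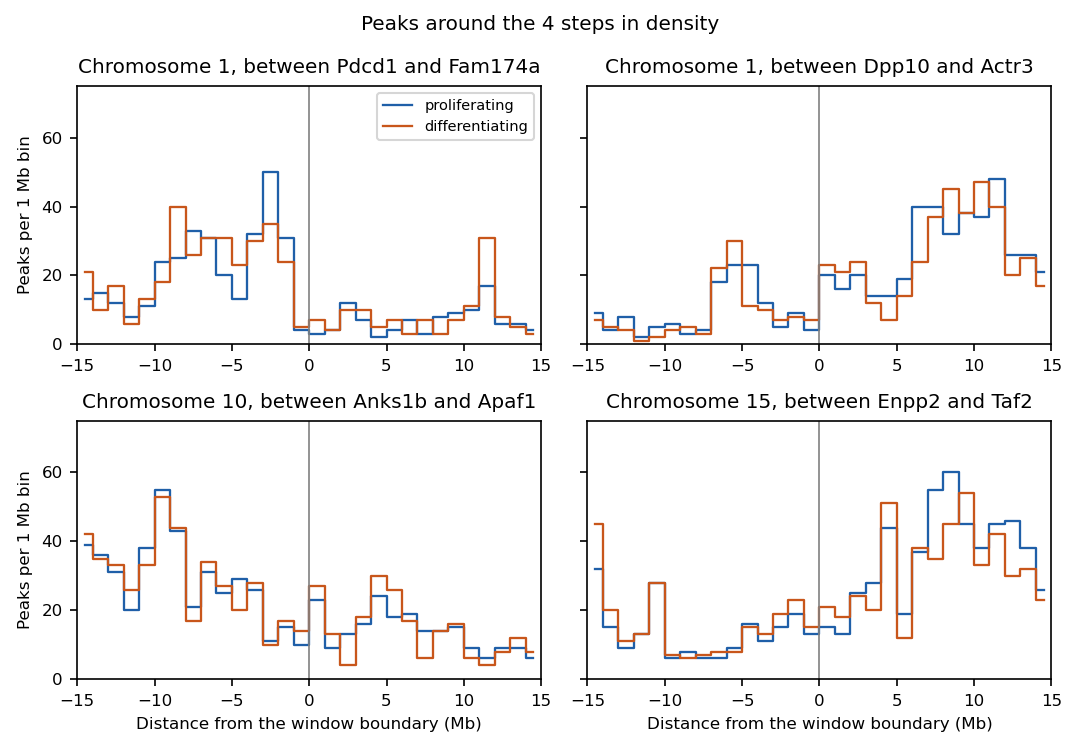
Peaks per 1 Mb bin within 15 Mb of the boundaries of the 4 steps of the proliferating list, in the proliferating (blue) and differentiating (orange) list. Negative distances lie before the boundary. The fall near the boundary between Pdcd1 and Fam174a takes 1 bin (31 and 24 peaks, then 4 and 5) and lies before the TSS of Pdcd1. The rise after Enpp2 extends over several bins.

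The excess in peaks per Mb on chromosomes 1, 10 and 15 was nearly all distal. Distal peaks were most of the count by which the chromosomes were chosen, so this is a description. Distal peaks numbered 20.6 and 19.96 per Mb against 7.91 and 7.16 on the other autosomes, a ratio of 2.60 and 2.79. Promoter peaks numbered 2.24 and 2.58 per Mb against 1.81 and 2.12, a ratio of 1.24 and 1.21. Counted per gene, the share of genes with a promoter peak was 1.53 and 1.48 times that elsewhere, since these chromosomes had fewer genes per Mb. The share of promoter peaks was accordingly 9.84% (9.25 to 10.5) and 11.4% (10.8 to 12.1), against 18.6% (18.1 to 19.2) and 22.9% (22.3 to 23.5) elsewhere. Counting the TSS of every transcript raised it to 15.95% and 17.6%. It was lowest on chromosome 15, at 8.78% and 10.2%, and highest on chromosome 10, at 10.9% and 12.6%. Peaks between genes made up 40.03% and 37.2%, against 31.5% and 28.1% elsewhere, and peaks in introns 36.4% and 37.7%, against 33.0% and 31.7%.

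Genes were fewer here, and a larger share of them had a promoter peak. Promoter peaks are part of the count by which the chromosomes were chosen, so this larger share is a description and nothing is read from it. Chromosomes 1, 10 and 15 had 7.18 protein-coding genes per Mb and the other autosomes 9.00. Of their 3014 genes, 1063 (35.3%, 33.6 to 37.0) were marked at the promoter in the proliferating list and 1211 (40.2%, 38.4 to 42.0) in the differentiating list, against 23.0% and 27.1% of 17793 genes elsewhere. A promoter peak in both lists was found for 812 genes (26.9%) and for 17.0% elsewhere, and 1552 genes had none in either list. The share of marked genes hardly differed among the 3 chromosomes, at 34.4% to 35.9% in the proliferating and 39.2% to 40.9% in the differentiating list. Across the 83 windows, peaks per Mb rose with the number of genes (Spearman's rho 0.545 and 0.547) and with GC content (0.621 and 0.628). The chromosomes differed in this. For gene number rho was 0.769 and 0.755 on chromosome 1, 0.349 and 0.268 on chromosome 10, and 0.481 and 0.566 on chromosome 15. For distal peaks alone it was 0.700 and 0.699, 0.0743 and 0.0701, and 0.385 and 0.425 in the same order. These are descriptions, since the windows share 1 library per list, and GC content and gene number go together along a chromosome.

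**Figure D3:**
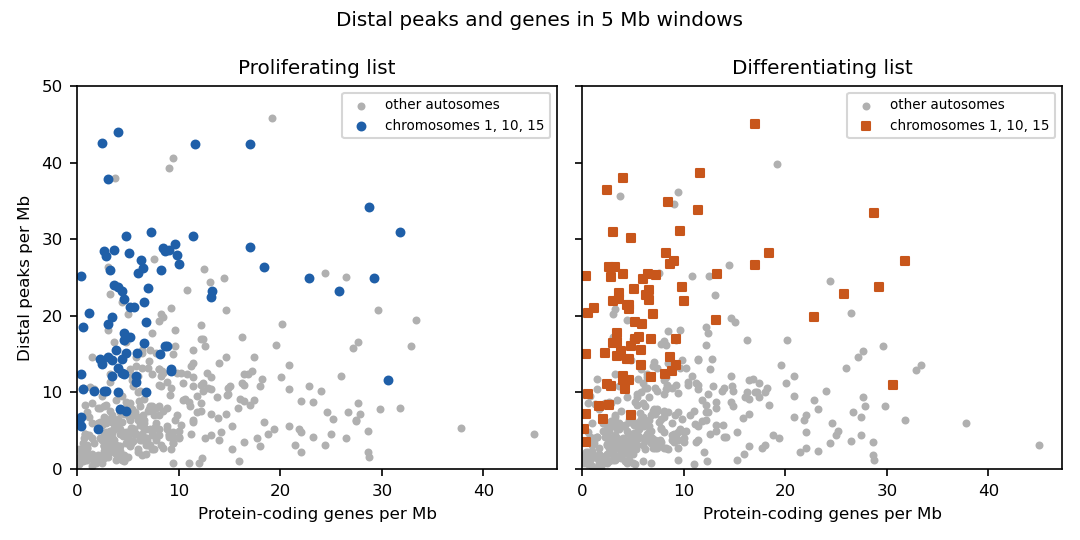
Distal peaks per Mb against protein-coding genes per Mb in 5 Mb windows, for the proliferating (left) and differentiating (right) list. Coloured points are the 83 windows of chromosomes 1, 10 and 15 and grey points the 389 windows of the other autosomes. Windows with fewer than 5 genes per Mb on chromosomes 1, 10 and 15 reach over 40 distal peaks per Mb in the proliferating list.

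The ratio between the chromosomes depended on the strength of the peaks, measured by the −log10 of the peak caller's q-value. Among distal peaks with a −log10 q from 1 to 1.5, chromosomes 1, 10 and 15 had 3.56 (proliferating) and 3.63 (differentiating) times the density of the other autosomes. The ratio was 2.73 and 2.95 from 1.5 to 2, 2.28 and 2.43 from 2 to 3, and 1.86 and 1.75 from 3 to 5. Among the 120 and 175 distal peaks of at least 5 it was 1.11 and 1.36. The ratio was thus largest among the weakest distal peaks. The chromosomes were chosen by the count of all peaks, most of which were distal and had a −log10 q under 2. This order is therefore a description and nothing is read from it. Promoter peaks did not follow this order, with ratios of 1.93 and 1.94 in the weakest class, between 1.08 and 1.18 in the next 3, and 1.64 and 1.48 in the strongest. The median −log10 q of all peaks on chromosomes 1, 10 and 15 was 1.83 and 1.74 against 1.999 and 1.98, and the median fold enrichment over the caller's background 3.24 and 3.03 against 3.38 and 3.18.

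**Figure D4:**
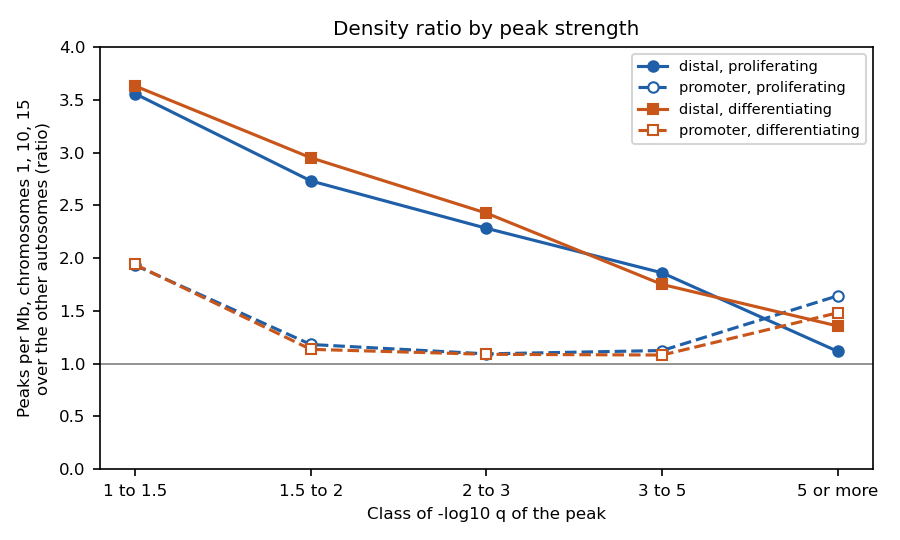
Peaks per Mb on chromosomes 1, 10 and 15 divided by peaks per Mb on the other autosomes, by class of −log10 q, for distal (filled, solid) and promoter (open, dashed) peaks of the proliferating (circles) and differentiating (squares) list. The distal ratio falls from 3.56 and 3.63 to 1.11 and 1.36 with strength, while the promoter ratio is lowest in the middle classes.

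Most peaks on chromosomes 1, 10 and 15 were in 1 list alone. A counterpart in the other list, with at least 1 shared base, was found for 2013 of the proliferating peaks (21.0%, 20.2 to 21.9) and 2005 of the differentiating peaks (21.2%, 20.4 to 22.0). On the other autosomes the shares were 33.1% (32.5 to 33.8) and 34.6% (33.9 to 35.3). Promoter peaks were shared about as often in both places, at 76.6% (73.8 to 79.3) and 69.8% (67.01 to 72.6) against 75.5% (74.1 to 76.9) and 66.7% (65.3 to 68.1), and the intervals overlapped. Distal peaks were shared for 14.98% (14.2 to 15.8) and 14.9% (14.2 to 15.7), against 23.4% (22.8 to 24.1) and 25.1% (24.4 to 25.8), and these intervals did not overlap. Single chromosomes lay closer, since the lowest share elsewhere was that of chromosome 6, at 17.5% (15.7 to 19.5) and 19.4% (17.4 to 21.5), and chromosome 19 had 17.9% (15.4 to 20.7) and 19.7% (16.9 to 22.7). In the proliferating list both of their intervals overlapped those of chromosomes 1, 10 and 15, and in the differentiating list that of chromosome 19 overlapped that of chromosome 15. With a reciprocal overlap of at least 0.5 required, the shared share of all peaks here was 11.2% and 11.3%. The shares of the 3 chromosomes lay close together, between 14.7% and 15.5% of the proliferating and 14.3% and 15.5% of the differentiating distal peaks. The shared share rose with strength, from 9.06% and 7.91% in the class of −log10 q from 1 to 1.5 to 91.0% and 89.9% of the peaks of at least 5. Within each class of distal peaks it was lower on chromosomes 1, 10 and 15 than elsewhere, for example 18.7% and 19.2% against 26.2% and 30.5% in the class from 2 to 3. For promoter peaks the direction differed among classes. From 1 to 1.5 their shared share was 39.3% and 31.7% against 44.2% and 32.0% elsewhere, and from 3 to 5 it was 90.8% and 85.8% against 85.6% and 77.3%.

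**Figure D5:**
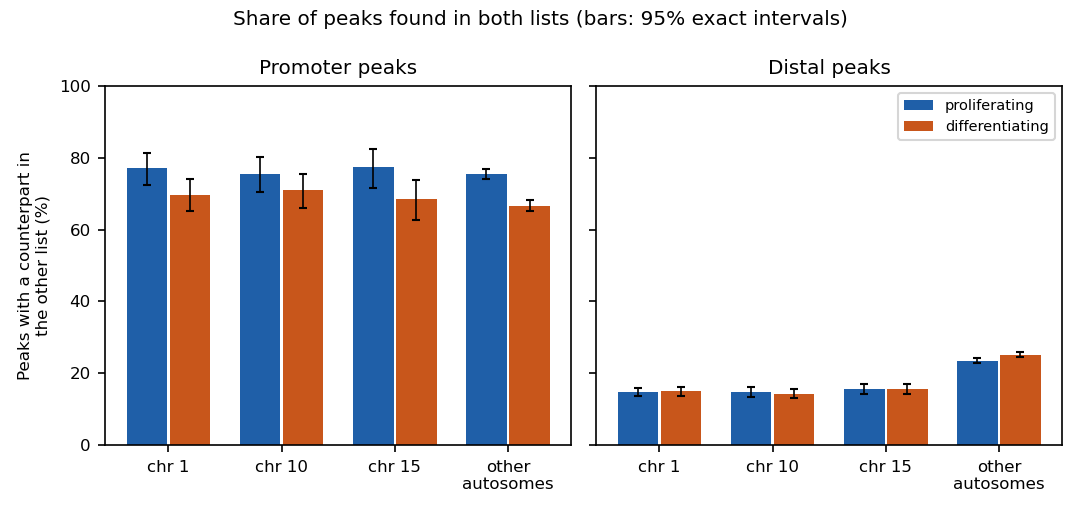
Percent of promoter (left) and distal (right) peaks with a counterpart in the other list, on chromosomes 1, 10 and 15 and on the other autosomes, for the proliferating (blue) and differentiating (orange) list. Bars start at 0 and error bars are 95% exact binomial intervals. Promoter peaks lie near 76.6% and 69.8% everywhere, and distal peaks at 14.3% to 15.5% on the 3 chromosomes against 23.4% and 25.1% elsewhere.

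The dense windows of other autosomes served as the nearest comparison. There were 38 of them that were dense in both lists, with 26.4 and 24.9 peaks per Mb against 29.0 and 28.1 in the 52 dense windows of chromosomes 1, 10 and 15. They held more genes (14.5 against 9.19 per Mb) and more promoter peaks (16.6% and 20.7% against 10.4% and 12.1%). Their distal peaks were shared for 23.1% (21.8 to 24.4) and 24.8% (23.4 to 26.2), against 15.5% (14.7 to 16.4) and 15.9% (14.98 to 16.8) in the dense windows of chromosomes 1, 10 and 15. The lower shared share was therefore also seen between windows of similar density.

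Widths were much alike in both places. The median width was 646 bp in the proliferating and 756 bp in the differentiating list, against 655 and 757 bp on the other autosomes. The quartiles were 291 and 1044 bp in the proliferating list and 381 and 1131 bp in the differentiating list. The shortest width that the caller gave, 263 and 279 bp, was shared by 23.0% and 17.8% of the peaks here and by 22.9% and 17.4% elsewhere. Promoter peaks were wider than distal ones (medians 883 and 960 bp against 621 and 722.5 bp), and shared peaks wider than those without a counterpart (929 and 1030 bp against 581 and 677 bp). Of the 3 chromosomes, chromosome 15 had the highest median, 664.5 and 803.5 bp. The widest peaks, 4459 and 4513 bp, were on chromosome 1, whereas the other autosomes had peaks of up to 9012 and 13859 bp. In sum of lengths, peaks covered 1.71% and 1.88% of the sequence of chromosomes 1, 10 and 15 and 0.745% and 0.786% of the other autosomes.

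Distal peaks with and without a counterpart differed in their sequence. The 1292 shared distal peaks of the proliferating list had a median GC content of 48.6% and the 7332 without a counterpart 43.7%, and in the differentiating list the medians were 48.3% and 43.4%. A start of any annotated transcript, noncoding ones included, lay within the promoter distance of 27.8% (25.4 to 30.3) and 25.8% (23.4 to 28.3) of the shared distal peaks. Among those without a counterpart it did so for 9.10% (8.45 to 9.78) and 9.35% (8.68 to 10.0). The GC box GGGCGG of SP and KLF factors was found in the central 200 bases of 42.5% and 44.0% of promoter peaks, 13.6% and 12.4% of shared distal peaks and 2.28% and 2.39% of distal peaks without a counterpart. On the other autosomes (chromosome 18 left out) these shares were 43.1% and 45.7%, 16.6% and 15.8%, and 3.28% and 4.31%. The E-box CAGCTG was in 13.4% and 14.1% of shared distal peaks and in 8.85% and 9.14% of those without a counterpart. On the same other autosomes it was in 15.2% and 15.8%, and in 10.5% and 10.2%. ACAATG, the core bound by SOX factors, was in 10.3% and 11.3% against 13.0% and 12.2%, and elsewhere in 9.69% and 9.85% against 10.8% and 11.5%. TGANTCA, bound by AP-1, was in 5.80% and 5.60% against 6.53% and 6.56%, and elsewhere in 5.15% and 5.64% against 5.87% and 6.04%. TGACGTCA was in 15 of 9565 and 22 of 9455 peaks (0.157% and 0.233%), against 0.397% and 0.461% elsewhere. Over all peaks of these chromosomes GGGCGG was found in 7.77% and 8.47%, against 13.2% and 16.01% on the other autosomes.

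The strongest distal peaks that were in both lists differed in width and in repeat content. On chromosome 1 the peak from 12644558 to 12645060, whose ggaat repeat is shown above, had a fold enrichment of 12.7 and a −log10 q of 72.1 in the proliferating list and 11.1 and 44.2 in the differentiating list. It lay between genes, 47217 bp from the TSS of Sulf1, an enzyme that trims heparan sulfate. The next on chromosome 1 were peaks of 495 and 616 bp in the proliferating list, 360040 bp from the TSS of Col3a1 and 194801 bp from that of Cr2, with 49.5% and 60.9% of their bases masked. On chromosome 10 the intronic peak of E030030I06Rik reached a −log10 q of 22.2 and 18.6. The peak over D630033A02Rik and Mirlet7i, a precursor of the let-7 family of microRNAs that restrain proliferation, had a fold enrichment of 6.25 and a −log10 q of 15.9 in the proliferating list and 4.75 and 8.47 in the differentiating list, with 8.32% masked. On chromosome 15 a peak of 1659 bp near Ly6c2 had a −log10 q of 43.9 and 44.1 with 55.6% masked in the proliferating list. In the intron of Asap1, a regulator of ARF GTPases, a peak of 2198 bp in the differentiating list had a −log10 q of 12.3 at a fold enrichment of only 2.84, and 6.05% of it was masked. The part that repeats play in the strength of these peaks was not tested.

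The strongest distal peaks without a counterpart were weaker. On chromosome 10 the strongest of the proliferating list had a −log10 q of 7.66, in an exon of Sesn1, a sestrin induced by stress, and on chromosome 15 the strongest had 6.36. In the differentiating list the strongest of chromosomes 1, 10 and 15 had 7.06 at 29259 bp from the TSS of Fam20b, 7.62 in an exon of Hint3 and 10.5 in an exon of Slc48a1, a heme transporter. The peak in Sesn1 lay 77510 bp from the TSS of the gene model used here and had a GC content of 68.4%, and that in Slc48a1 one of 72.9%.

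The 3 genes with the most peaks on each chromosome were between 411 and 1577 kb long, and long genes were favoured because the counts were not divided by length. On chromosome 1, Tnr, which encodes the matrix protein tenascin R that oligodendrocytes secrete, had 20 peaks in the proliferating and 26 in the differentiating list, 10 of them shared. Dnm3, a dynamin of membrane fission, had 19 and 20 peaks with 8 shared, and Nckap5 14 and 19 with 3 shared. On chromosome 10, Ctnna3, an alpha catenin, had 32 and 51 peaks with 7 shared, Pcdh15, a protocadherin, 27 and 35 with 5 shared, and Nkain2, which binds the sodium pump, 28 and 26 with 1 shared. On chromosome 15 the cadherin genes Cdh12 and Cdh18 had 20 and 39 and 30 and 22 peaks with 2 shared each, and Tmem117 had 27 and 25 with 5 shared. Ctnna3 and Cdh12 thus had more peaks in the differentiating list and Cdh18 fewer, in 1 library each. Per 100 kb of gene, Tmem117 had 5.75 and 5.32 peaks and Tnr 4.87 and 6.33, whereas Nckap5 had 1.52 and 2.06. Dnm3 had 3.81 and 4.01, Ctnna3 2.03 and 3.23, and Pcdh15 1.74 and 2.25. Nkain2 had 2.33 and 2.16, Cdh12 1.75 and 3.41, and Cdh18 3.23 and 2.37. Chromosomes 1, 10 and 15 as a whole had 22.8 and 22.5 peaks per Mb, so several of these genes lay near or below that density in 1 or both lists.

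Of 53 genes listed for the oligodendrocyte lineage and growth control on these chromosomes, 21 had a promoter peak in the proliferating and 27 in the differentiating list. Of the 53, 17 had one in both and 22 in neither. Of all 3014 protein-coding genes of the chromosomes, 35.3% and 40.2% had one, 26.9% had one in both lists and 1552 genes had none in either. The 53 include 1 noncoding gene, Pvt1, whose start was treated in the same way and was marked in both lists. These lists were chosen with earlier results of the same data known. Of the 22 genes of the lineage list, 8 and 9 had a promoter peak and 5 had one in both peak lists. Sox10, the transcription factor without which oligodendrocytes do not mature, had a peak of 2743 bp in the proliferating list (chr15:79163884-79166626, fold enrichment 2.47, −log10 q 4.78) and of 3654 bp in the differentiating list (2.23 and 4.50). Hes6, a bHLH factor, had a −log10 q of 3.02 and 5.10, Pou3f3, a POU factor, 2.88 and 4.45, Marcks, a substrate of protein kinase C that binds actin, 3.19 and 3.09, and the neuregulin receptor Erbb4 1.55 and 1.83. The differentiating peak of Erbb4 lay inside the gene, 93 bp from the TSS, and reached only the edge of the region. Sox10 and Marcks had broad peaks of low fold enrichment.

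Other genes of the lineage list had a promoter peak in 1 peak list alone. In the proliferating list these were Gpr37l1, a receptor of glia, with a −log10 q of 7.01, Pdgfb, the B chain of PDGF, with 1.64, and Tspan31, a tetraspanin, with 1.87. In the differentiating list they included Nfasc, the adhesion protein neurofascin, with 2.81, and Nav1, a neuron navigator, with 1.75. The change at Gpr37l1 depended on the edge of the region, since the differentiating list had a peak inside the gene that began 125 bp from its TSS, just short of the region. The 10 genes with none in either list included Erbb3 and Fyn, whose nearest peaks lay 1733 and 1598 bp and 904 and 791 bp from the TSS. Fyn, a Src family kinase, carried 11 and 10 peaks over its gene, and Plxna2, a semaphorin receptor, 11 and 7.

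Among 31 genes of growth control and of the immediate early and stress responses, 13 and 18 had a promoter peak, and 12 had one in both lists. Of all protein-coding genes of these chromosomes, 35.3% and 40.2% had one, and 26.9% had one in both lists. The 31 were picked with earlier results of these data known, so nothing is read from these counts. Mdm2 (ENSMUSG00000020184.15, TSS at 117710758 of chromosome 10), the ubiquitin ligase of p53 whose start site is shown above, had the strongest promoter peak of the 31. It had a fold enrichment of 7.30 and a −log10 q of 20.8 in 590 bp in the proliferating list and 5.82 and 14.8 in 540 bp in the differentiating list. Atf4, a factor of the integrated stress response, had a −log10 q of 8.20 and 6.44. Myc had peaks of 3480 and 3327 bp over its TSS with a −log10 q of 3.63 and 4.81, and the neighbouring noncoding RNA Pvt1 had 3.81 and 6.58 at its start and 17 and 15 peaks over the gene. Dusp6, the phosphatase of ERK, had 3.93 and 6.17, Rad21, a cohesin subunit, 4.10 and 6.19, Pim3, a kinase, 4.29 and 5.43, and Ddit3, a stress factor, 4.47 and 4.20. The cyclin-dependent kinases of the cell cycle were marked in both states, Cdk4 with 1.37 and 4.81 and Cdk1 with 1.90 and 3.23. Bcl2, Klf10 and these genes make up the 12.

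In 1 list alone, Ier5, an immediate early gene, was marked at its promoter in the proliferating list with a −log10 q of 2.41, and the differentiating list had a peak 233 bp from its TSS. In the differentiating list alone, peaks were found at Btg1, an antiproliferative gene, with 3.51, Trib1, a pseudokinase, with 3.49, Gadd45b, a gene of growth arrest, with 2.36, Atf3, a stress factor, with 1.96, Hmga2, a chromatin protein, with 1.37, and Fn1, fibronectin, with 1.28. At Btg1, Trib1 and Hmga2 the proliferating list had peaks 124, 323 and 168 bp from the TSS that did not reach the region. The remaining 12 genes, among them Btg2, Nr4a1, Ptgs2 and Gli1, had no promoter peak in either list.

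Between the states the density of windows differed little. Peaks of the differentiating list over those of the proliferating list gave a ratio of 0.994 at the median of the 83 windows, from 0.679 to 1.35. None of the 83 was past 1.5-fold, where 6.87% of 466 autosomal windows with at least 10 peaks were, all 32 of them on the other autosomes. The windows here held a median of 212 peaks in both lists summed and those of the other autosomes 73, and of the 138 windows elsewhere with at least 100 peaks 1 was past 1.5-fold. The lowest ratio was in the sparse window of chromosome 1 from 110 to 115 Mb, and the highest, 58 against 43 peaks, in its neighbour from 105 to 110 Mb. In the dense segment of chromosome 15 from 35 to 45 Mb, 188 peaks stood against 238. The order of the windows was nearly the same in both lists (Spearman's rho 0.960 over 83 windows), while 21.0% and 21.2% of the peaks had a counterpart.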

How the data were processed

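H3K27ac ChIP-seq peaks of Oli-neu cells in 2 states were analysed, 1 library each. The authors aligned the reads to GRCm38/mm10 with Bowtie2 2.1.0, removed duplicates with SAMtools, called broad peaks with MACS2 2.0.10 and removed blacklisted regions with bedtools, per the labels and the methods. The deposited lists hold chromosome, start, end and a text cell, whose 3 values were read, in the caller's order, as a ratio (the fold enrichment), the −log10 of the p-value and that of the q-value. The stated cutoff is q = 0.05, but 3.90% and 11.5% of the peaks are above it. Without read counts in the lists, the depth of single peaks is unknown. An input library is not given in the sources used here.

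Peaks were assigned by midpoint to windows of 5 Mb with at least 2.5 Mb of sequence without N. Promoter regions came from GENCODE M21. Shares have exact Clopper-Pearson and densities exact Poisson 95% intervals. The rules were tested on simulated data (Python 3.11.15, NumPy 2.4.6, pandas 2.3.3, SciPy 1.17.1, matplotlib 3.10.9). Without replicates no test between states was run. Members, gene lists and rules were chosen with earlier results of these data known. Named were the listed genes, the 3 strongest shared distal peaks and 3 peak-richest genes per chromosome, and the genes at each step. The strongest peaks without a counterpart and the windows singled out were chosen after their values were seen. A few named items are not reported here. Alternatives are given at the end.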

Additional observations from a re-analysis of the deposited data

How the results depend on the processing

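Of 105 values computed under other settings, 50 stayed within the 95% interval of the value reported or, for counts, within 1.5 times it, and 55 moved. In each pair below the proliferating list comes first.

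With peaks of a −log10 q of at least 5, the share of autosomal peaks on chromosomes 1, 10 and 15 was 22.5% and 23.1%, the distal density ratio 1.11 and 1.36, the promoter share 56.8% and 52.1%, the shared share 52.9% and 40.3%, the median width 860 and 1113 bp, the dense windows 31 and 29, the steps 14 and 14, and 6 of 19 windows were past 1.5-fold between states. With q of at most 0.05, the share was 32.5% and 32.7%, the ratio 2.51 and 2.65, and 1 window of 83 was past 1.5-fold, while in the differentiating list the promoter share was 12.8%, the shared share 23.3% and the median width 737 bp. Without peaks of the shortest width, the promoter share was 11.9% and 13.4%, the shared share 24.5% and 23.1% and the median width 830 and 889 bp. In these settings both lists were filtered, so a counterpart also had to pass the filter. The 91.0% and 89.9% given above for peaks with a −log10 q of at least 5 instead allowed a counterpart of any strength.

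The promoter share was 11.8% and 13.2% with 6000 bp upstream, 10.8% and 12.4% with 1000 bp on both sides, and 15.95% and 17.6% with the TSS of every transcript, when the distal ratio was 2.71 and 2.95. A reciprocal overlap of 0.5 gave shared shares of 11.2% and 11.3%. Windows of 1 Mb gave 252 and 287 dense windows of 421 and 87 of 409 past 1.5-fold. Windows of 2.5 Mb gave 111 and 109 dense of 169, 10 and 12 steps, and 8 past 1.5-fold. Windows of 10 Mb gave 24 and 26 dense of 43, and 2 steps in the differentiating list. Without chromosome 1 the distal ratio was 2.91 and 3.15, and without chromosome 15 it was 2.40 and 2.56 with a median width of 736 bp in the differentiating list. The counts of windows depend on window size by construction, since smaller windows are more numerous and hold fewer peaks, and for the other settings the cause was not tested.

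No paired analysis was possible because each state gave 1 H3K27ac library with no replicate number. Depth per peak and the variation between cultures cannot be read from these lists.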
